A study of Homo sapiens with 2 samples.

Results

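Aminoacyl-tRNA synthetases are the enzymes that join each amino acid to its transfer RNA, and the genes for them were followed here in NB4, a human cell line of acute promyelocytic leukemia (APL) with the PML/RARα fusion. The genes were chosen by name: 1-letter amino acid codes followed by ARS or ARS2, together with EPRS, FARSA, FARSB, TARSL2, AIMP1, AIMP2 and EEF1E1. The rule found 39 of the 11619 listed genes, and these comprised 21 genes for cytosolic enzymes, 15 for mitochondrial enzymes and 3 for scaffold proteins. The list leaves out genes that do not pass 0.5 FPKM in at least one library, and 2 of the 17 mitochondrial enzyme genes, MARS2 and PARS2, are not in it.

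NB4 cells had been infected for 3 days with lentivirus for an shRNA against the long non-coding RNA CRNDE (sh-CRNDE) or for a non-targeting shRNA (sh-Control), and both groups otherwise had the same culture. RNA sequencing gave 1 library per group, called the control and the knockdown below, so a difference between the groups has no replicate check, and no p-value or standard error is given. The paper describes more than 1 CRNDE shRNA, and the labels do not say which was used in the sequenced cells. Values are FPKM, the number of fragments for each kilobase of transcript relative to all mapped fragments, which keep no read counts, so the depth is unknown. In bulk RNA, fewer cells with a transcript and less of it per cell cannot be told apart.

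CRNDE itself was at 5.92 FPKM in the control and 1.85 FPKM in the knockdown. Of the 7 promyelocyte markers, 6 are listed, with MPO at 1135 FPKM in the control and 738 FPKM in the knockdown, and the summed level was 1423 FPKM in the control and 824 FPKM in the knockdown. ELANE, the neutrophil elastase gene, is not listed. Of 13 markers of T, B, erythroid and epithelial cells, 4 are listed, the highest being EPCAM at 4.82 FPKM in the control and 4.49 FPKM in the knockdown.

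Protein synthesis needs a charged transfer RNA for every amino acid, and cytosol and mitochondria each have their own set of charging enzymes, nearly all of them encoded in the nucleus by separate genes. Cytosolic enzymes are named ARS after the amino acid letter and mitochondrial ones ARS2. GARS and KARS, for glycine and lysine, each make the enzyme of both compartments from the same gene. Several cytosolic enzymes sit in the multisynthetase complex, which is held together by the scaffold proteins AIMP1, AIMP2 and AIMP3, the last encoded by EEF1E1. The enzymes fall into class I and class II by the fold of their catalytic domain. Shortage of an amino acid leaves uncharged transfer RNA, which activates the kinase GCN2 and through it the transcription factor ATF4, and synthetase genes are among the genes that ATF4 can induce.

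The summed level of the synthetase genes was nearly the same in both libraries. Their FPKM values added up to 881 in sh-Control and 895 in sh-CRNDE, a ratio of 1.02. Over all listed genes the sums had a ratio of 1.21, which was 1.01 without MT-RNR2, the mitochondrial large ribosomal RNA, whose listed FPKM was 27614 in the knockdown and 0 in the control. The change of a gene is the knockdown value of log2(FPKM + 1) less the control value, and a change past 1.5-fold, or 0.585 on this scale, was called. The change of 36 of the 39 genes was within 1.5-fold. AARS was the gene called higher in sh-CRNDE, and FARSA and LARS2 were the genes called lower. These 3 were 7.69% of the members, against 17.2% of all 11619 genes and 14.1% of the 8773 genes that reached 1 FPKM in each library. Called higher were 8.38% of all genes and called lower 8.83%. Calls are rarer at higher levels, and 11% of the genes that reached 10 FPKM in each library were called, beside 2 of the 24 members at that level. The median change was 0.07 over the members and -0.01 over all genes. The change was above 0 in 25 of the 39 members, which is 64.1%, against 49.2% of all genes. Where 10 FPKM was reached in each library, it was above 0 in 17 of the 24 members, or 70.8%, against 54.2% of genes. The median changes at that level were 0.13 and 0.03. Across the members, which are not replicates, log2(FPKM + 1) in the control and in the knockdown had a Pearson correlation of 0.967.

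**Figure D1:**
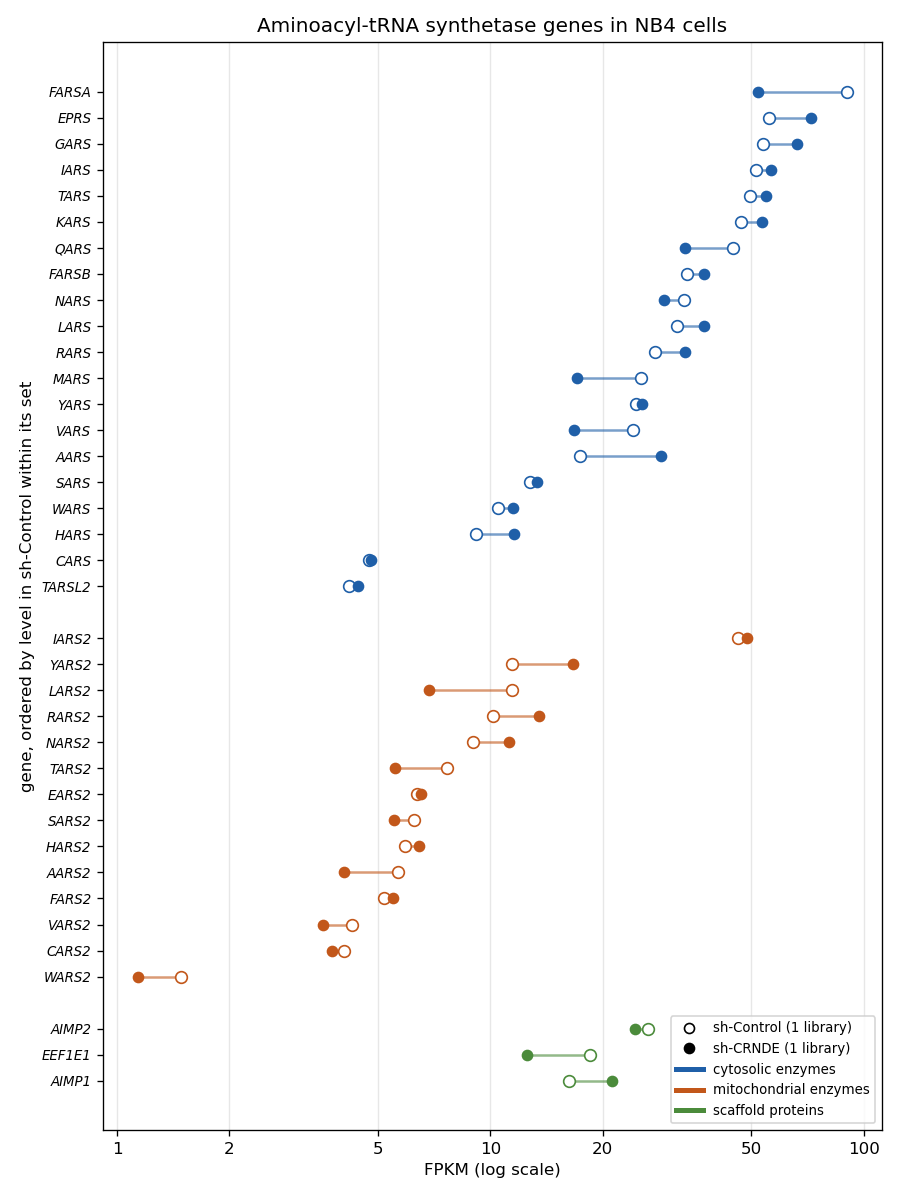
FPKM of 37 of the 39 genes on a log scale, with 1 row per gene ordered by its level in sh-Control within its set. Open points are the sh-Control library, filled points the sh-CRNDE library, and the line joins them. Cytosolic genes lie mostly to the right of the mitochondrial ones, and the longest lines are those of AARS, FARSA and LARS2.

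The cytosolic enzymes were the abundant part of the set. Their levels in sh-Control ran from 4.19 FPKM for TARSL2 to 90.0 FPKM for FARSA, with a median of 27.6 FPKM, and in sh-CRNDE the median was 29.2 FPKM. Of the 21 genes, 16 had a change above 0, with a median of 0.13. Without GARS and KARS, which also serve mitochondria, it was 0.12. The lowest changes in this set were those of FARSA, MARS, VARS and QARS, at -0.42 or below.

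AARS, the gene for the alanyl-tRNA synthetase (chromosome 16, 70251983 to 70289707, minus strand, GRCh38, 21 exons), measured 17.4 FPKM in the control and 28.6 FPKM in the knockdown. Its change of 0.69 was the highest of the members, and 93.7% of all genes had a lower one. In order of level AARS stood at place 19 of the 39 genes in sh-Control and at place 13 in sh-CRNDE.

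FARSA and FARSB encode the α and β subunits of the cytosolic phenylalanyl-tRNA synthetase, which works as a tetramer of both. Without subtraction for GC content, their changes had opposite signs. FARSA (chromosome 19, 12922479 to 12934037, minus strand, 13 exons) measured 90.0 FPKM in sh-Control, the highest level of any member, and 52.0 FPKM in sh-CRNDE, where 5 members were higher. Its change of -0.78 was the lowest of the 39. With the median of genes of like GC content subtracted, as described further on, it was -0.55, no longer past 1.5-fold and above those of EEF1E1 and LARS2. FARSB (chromosome 2, 222566899 to 222656092, minus strand, 17 exons) measured 33.6 FPKM in the control and 37.3 FPKM in the knockdown, with a change of 0.14. After the same subtraction the change of FARSB was -0.01. The level of FARSA over that of FARSB was 2.68 in sh-Control and 1.40 in sh-CRNDE.

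Among the enzymes of the multisynthetase complex, none of the 8 genes was past 1.5-fold, all of them above 10 FPKM, where 11% of all genes were. EPRS, whose product charges both the glutamate and the proline transfer RNA, was at 55.7 FPKM in the control and 72.2 FPKM in the knockdown, and became the member with the highest level. RARS, for arginine, was at 27.6 FPKM in the control and 33.2 FPKM in the knockdown. LARS, the leucine enzyme, was at 31.6 FPKM in the control and 37.4 FPKM in the knockdown. These 3 genes had changes of 0.37, 0.26 and 0.24. KARS (lysine) and IARS (isoleucine) had smaller changes, of 0.18 and 0.13. The methionine and glutamine enzymes went the other way. MARS was at 25.3 FPKM in the control and 17.1 FPKM in the knockdown, with a change of -0.54. QARS was at 44.8 FPKM in the control and 33.3 FPKM in the knockdown, with a change of -0.42. Over the 8 complex enzymes the median was 0.19, and that of the 13 cytosolic enzymes outside the complex was 0.06. With the median of genes of like GC content subtracted, these medians were 0.08 and 0.10, in the reverse order.

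The scaffold proteins of the complex differed among themselves. AIMP1 was at 16.3 FPKM in the control and 21.1 FPKM in the knockdown, with a change of 0.36. AIMP2 was at 26.4 FPKM in the control and 24.5 FPKM in the knockdown, with a change of -0.11. EEF1E1 was at 18.5 FPKM in the control and 12.5 FPKM in the knockdown, with a change of -0.53. AIMP1 was thus below EEF1E1 in sh-Control, at a ratio of 0.879, and above it in sh-CRNDE, at a ratio of 1.69. EEF1E1 shares 393 bases of its exons with the read-through gene EEF1E1-BLOC1S5 on the same strand, and 532 bases of the AIMP2 exons lie opposite an exon of EIF2AK1, which was at 37.3 FPKM in the control and 38.7 FPKM in the knockdown. The TruSeq v2 kit does not mark strand, so reads in such an overlap cannot be assigned by strand.

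Of the cytosolic enzymes outside the complex, HARS (histidine) and GARS (glycine) followed AARS, with changes of 0.32 and 0.30. GARS was at 53.9 FPKM in the control and 66.4 FPKM in the knockdown. VARS, the valine enzyme, which binds the elongation factor 1 complex, was at 24.1 FPKM in the control and 16.8 FPKM in the knockdown, with a change of -0.50. NARS, for asparagine, was at 33.0 FPKM in the control and 29.2 FPKM in the knockdown, with a change of -0.17. The other 7 genes (TARS, WARS, TARSL2, SARS, YARS, CARS and FARSB) lay between 0.01 and 0.14. TARSL2, a second threonyl-tRNA synthetase gene, was at 4.19 FPKM in sh-Control and TARS at 49.6 FPKM, a ratio of 11.8 that was 12.4 in sh-CRNDE. WARS, the tryptophan enzyme and an interferon-induced gene, was at 10.5 FPKM in the control and 11.5 FPKM in the knockdown.

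The mitochondrial enzymes were lower in level and had a median change nearer to 0. Their median was 6.34 FPKM in the control and 6.44 FPKM in the knockdown. IARS2, for isoleucine, stood apart at 46.2 FPKM in the control and 48.8 FPKM in the knockdown, while the other 14 genes were at 11.4 FPKM or less in sh-Control. WARS2, for tryptophan, was lowest, at 1.48 FPKM in the control and 1.14 FPKM in the knockdown. The change was above 0 in 8 of the 15 genes and the median change was 0.04, which is 0.09 below that of the cytosolic enzymes. With the median of genes of like GC content subtracted, 11 of these 15 genes were above 0, beside 14 of the 21 cytosolic ones. The sets overlapped widely, since the mitochondrial changes ran from -0.66 to 0.50 and the cytosolic ones from -0.78 to 0.69.

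LARS2, the mitochondrial leucyl-tRNA synthetase (chromosome 3, 45388561 to 45554726, plus strand, 22 exons), measured 11.4 FPKM in the control and 6.85 FPKM in the knockdown. Its change of -0.66 was the only one of the set past 1.5-fold, and 7.07% of all genes had a lower one. YARS2, for tyrosine, was also at 11.4 FPKM in the control, and at 16.6 FPKM in the knockdown, with a change of 0.50. The level of YARS2 was thus close to that of LARS2 in the control and above it in the knockdown. RARS2 (arginine) and NARS2 (asparagine) also had positive changes, of 0.38 and 0.29. AARS2 (alanine) and TARS2 (threonine) were lower, AARS2 at 5.67 FPKM in the control and 4.05 FPKM in the knockdown, and TARS2 at 7.63 FPKM in the control and 5.54 FPKM in the knockdown. The change was -0.40 in each. The other 9 genes were between -0.21 and 0.10.

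Cytosolic and mitochondrial enzymes for the same amino acid made 17 pairs, in which FARS2 and TARS2 each occur more than once because they have a pair of cytosolic counterparts. The cytosolic gene had the higher FPKM in 16 of the 17 pairs, in sh-Control as in sh-CRNDE, the exception being TARSL2 with TARS2. The median ratio of levels was 2.77 in sh-Control and 2.78 in sh-CRNDE. The closest pair was IARS and IARS2, at a ratio of 1.12 in sh-Control, and the widest was FARSA and FARS2, at 17.4.

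The changes of paired genes had the same sign in 8 of the 17 pairs and opposite signs in 9. In 7 pairs both were above 0 and in 1 pair, VARS and VARS2, both were below 0. In 7 pairs the cytosolic gene was above 0 and the mitochondrial gene below it, and in 2 pairs, FARSA with FARS2 and NARS with NARS2, the order was reversed. These counts rest on changes without GC subtraction, under which CARS2, FARSB, SARS2, TARSL2 and VARS2 turned sign. The alanine enzymes differed most. The level of AARS over that of AARS2 was 3.06 in sh-Control and 7.06 in sh-CRNDE, with a difference between their changes of 1.09 on the log2 scale. For leucine, LARS over LARS2 was 2.77 in sh-Control and 5.46 in sh-CRNDE. For threonine, TARS over TARS2 was 6.50 in sh-Control and 9.90 in sh-CRNDE. In the opposite direction, FARSA over FARS2 was 17.4 in sh-Control and 9.47 in sh-CRNDE. In these 4 pairs the ratio of FPKM, taken without a pseudocount, moved by more than 1.5-fold, and in the other 13 it did not. On the scale of log2(FPKM + 1), the changes of TARS and TARS2 differed by 0.54, which is under 0.585. No share over pairs of other genes was computed.

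The class of the enzyme separated the changes little. The median change of the 17 class I enzymes of both compartments was 0.04, and that of the 18 class II enzymes was 0.10. EPRS, which holds a domain of each class, was left out of this comparison. The SD over genes was 0.33 in class I and 0.33 in class II, larger than the difference between them.

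The changes varied with the GC content of the transcripts. GC content was taken from the canonical transcript of each gene, and over the 39 members it ran from 35.2% for AIMP1 to 61.7% for VARS. Of the 21 members under 50% GC, 18 had a change above 0 and the median was 0.14. Of the 18 members with 50% GC or more, 7 had a change above 0 and the median was -0.13. The genes at large sloped the same way. Where a gene reached 1 FPKM in each library, the change was above 0 in 65.6% of those under 50% GC and in 28% of those with 50% or more. Pearson's r between change and GC content was -0.45 across the 39 members and -0.33 across 8733 genes, and genes that share a library are not independent. The part of GC content in the members' changes was not tested.

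After subtraction of the median over genes of like GC content, AARS was at 0.77 and LARS2 at -0.63, and both were still past 1.5-fold. FARSA, with 61.3% GC, was no longer past it. EEF1E1, with 36.4% GC, was at -0.74 and now past it. The lower values of VARS and QARS were smaller, at -0.23 and -0.30, and that of MARS was -0.46. YARS2 was at 0.54. The medians were 0.10 for the cytosolic and 0.03 for the mitochondrial enzymes.

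Promoters were read for the letters of sites known for ATF4 and MYC, transcription factors that act on synthetase genes. RefSeq promoter windows (GRCh38.p14) run from 250 bases before to 50 after a gene's start, and 31 of the 39 genes matched. The letters TGATGNAAT, a C/EBP-ATF response element that ATF4 reads, were found on either strand in 2 of the 31 genes, TARS and GARS, and in 1.22% of the 27305 genes of the table. They are shown because these windows are the matches in the set, with the site in capitals as it reads on the strand of the gene, where it is the reverse complement of the letters searched.
TARS (chr5:33440956-33440985, plus strand): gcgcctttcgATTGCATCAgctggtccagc
GARS (chr7:30594834-30594863, plus strand): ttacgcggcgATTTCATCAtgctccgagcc
Counted from the RefSeq start of the window, the TARS site begins 1 base after the first base and the GARS site 34 bases before it. The GENCODE genes begin upstream of both sites. These genes had changes of 0.14 and 0.30. AARS was among the genes with no match in its window.

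The E-box CACGTG, which MYC and MAX read, was found in 4 of the 31 genes, or 12.9%. The share was 8.77% of the 27305 genes with promoter windows, whether listed here or not. It does not overlap the other element in any window shown. The E-box is in capitals.
IARS (chr9:92293866-92293895, minus strand): tggttcgttttcCACGTGgaggcgcaaaac
AIMP2 (chr7:6009478-6009507, plus strand): ccgggcgctggcCACGTGcaggtaggagcg
CARS2 (chr13:110706501-110706530, minus strand): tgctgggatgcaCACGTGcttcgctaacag
EARS2 (chr16:23557348-23557377, minus strand): cagggagaagccCACGTGtgctattccatc
The GENCODE genes of AIMP2, CARS2 and EARS2 begin upstream of the sites shown, so these sites lie inside the genes, and that of IARS lies before its gene. The changes of these 4 genes lay between -0.11 and 0.13, and none of the 3 called genes had a match.

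HARS and HARS2, on chromosome 5, are transcribed away from each other, and their GENCODE starts lie 107 bases apart, with the 5′ ends overlapping. HARS was at 9.13 FPKM in the control and 11.6 FPKM in the knockdown, and HARS2 was at 5.92 FPKM in the control and 6.44 FPKM in the knockdown. Both changes were above 0. AARS has a divergent neighbour too, DDX19B, whose start lies 44 bases from its own and which was at 6.29 FPKM in the control and 7.27 FPKM in the knockdown, with a change of 0.18 beside the 0.69 of AARS. Within 1000 bases, 7 divergent pairs with listed protein-coding neighbours were found, and the changes had the same sign in 4 and opposite signs in 3, those of EARS2, SARS2 and AIMP2. MARS overlaps DDIT3, a stress response gene on the opposite strand, by 60 bases of exon. The values there were 2.37 FPKM in the control and 3.73 FPKM in the knockdown, a direction opposite to that of MARS.

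Genes around the charging step were read from lists of related genes. Over all lists, 91 of 96 genes are listed, of which 5 were called higher and 6 lower, and the median change was 0.03. The called share was 12.1%, against 17.2% of all 11619 genes, and the lists that follow hold few genes beside that background. None of the 4 genes for the mitochondrial amidotransferase and formylation of transfer RNA was called, and GATC, a subunit of the amidotransferase that makes glutaminyl-tRNA in mitochondria, had the lowest change, -0.50. None of the 7 elongation and export genes was called. TUFM, the mitochondrial elongation factor Tu, was at 131 FPKM in the control and 95.9 FPKM in the knockdown, with a change of -0.44. Of 5 listed genes for removal of amino acids from transfer RNA and its recycling, 1 was called, PTRHD1, at 1.47 FPKM in the control and 3.78 FPKM in the knockdown.

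In the processing of transfer RNA ends, POP7, a subunit of RNase P, was at 37.1 FPKM in the control and 5.30 FPKM in the knockdown. Its change of -2.59 was larger than that of any synthetase gene. POP1, another subunit of RNase P, was called higher, with a change of 0.65, and the other 14 of the 16 listed genes were within 1.5-fold. Of 52 listed genes for modification of transfer RNA, 3 were called higher and 5 lower, which is 15.4% and near the 17.2% of all genes. YRDC, which acts in the making of the t6A modification, was at 19.3 FPKM in the control and 6.02 FPKM in the knockdown. CTU1, ADAT3, DUS3L and TRMT12 were the others called lower, the last listed at 0 in sh-CRNDE and at 1.33 FPKM in sh-Control. TRMT12 has a single exon, while the synthetase genes have 4 or more and none is listed at 0. TRMT61A, ALKBH8 and TRMT5 were called higher, with changes of 0.91, 0.71 and 0.60. With the median of genes of like GC content subtracted, ADAT3 (-0.38), DUS3L (-0.38), ALKBH8 (0.53) and TRMT5 (0.42) were no longer past 1.5-fold, and TYW3 (-0.74) was.

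Of 8 genes of the amino acid response, 7 are listed. All 7 had a change above 0, from 0.05 to 0.49, against 49.2% of all genes, and none was called, against 17.2%. The 5 listed genes for removal of amino acids from transfer RNA and its recycling were also all above 0. The other lists held changes of both signs. ATF4 was at 66.4 FPKM in the control and 75.8 FPKM in the knockdown, and its target ASNS, the asparagine synthetase gene, was at 3.92 FPKM in the control and 4.64 FPKM in the knockdown.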

How the data were processed

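The authors deposited FPKM values per gene for 1 library of NB4 cells with sh-CRNDE and 1 with sh-Control. Libraries were made with the TruSeq RNA v2 kit and sequenced on an Illumina MiSeq. The submitters' processing notes name fastp 0.20.0, HISAT2 2.0.4, StringTie 1.2.3 and GRCh38, and the annotation release is not given in the sources used here. Low FPKM values showed no steps of whole reads, so no counting interval was computed. Genes were matched between libraries by Ensembl identifier, and log2(FPKM + 1) was taken. A change past 1.5-fold was called, which is the fold threshold the paper gives. Position, exons and GC content come from GENCODE release 44 on GRCh38, to which 11508 identifiers matched and 111 did not. The GC adjustment used 20 bins of genes that reached 1 FPKM in each library. All members could be named, except that 2 are counted in the totals and not reported here singly or drawn, and from the lists of related genes those past 1.5-fold. Other genes named (CRNDE and markers apart) were chosen after their values were seen: MT-RNR2, TYW3, GATC, TUFM, ATF4, ASNS, DDX19B, DDIT3 and EIF2AK1. The members and lists were chosen with earlier results of these data known. Scripts were tested on simulated data. Python 3.11.15, numpy 2.4.6, pandas 2.3.3 and matplotlib 3.10.9 were used.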

Additional observations from a re-analysis of the deposited data

How the results depend on the processing

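No paired analysis was possible because there was 1 library per group. Under pseudocounts of 0.1 and 0.01, centring, quantile normalization, rescaling to TPM without mitochondrially encoded and small RNA genes, and a filter of 1 FPKM in both libraries, AARS, FARSA and LARS2 were the genes past 1.5-fold and no member changed sign. Of the genes that reached 1 FPKM in each library, these settings put 14.0% to 20.7% past 1.5-fold. The median change of the cytosolic enzymes stayed between 0.09 and 0.14, and that of the mitochondrial ones between 0.03 and 0.04. The difference between these medians stayed below 0 under all alternatives run, from -0.10 to -0.06. Centring and the filter could not alter it, since centring moves both medians alike and the filter kept all 39 members. The difference was small beside the SD over genes, 0.35 in the cytosolic and 0.31 in the mitochondrial set. At a threshold of 2-fold, 0 members were called higher and 0 lower. The share of all genes past 2-fold was not computed, so these counts have no background to be read against. Subtracting the median over genes of like GC content took FARSA (-0.55) under 1.5-fold, put EEF1E1 (-0.74) past it and turned the sign of 5 genes (CARS2, FARSB, SARS2, TARSL2 and VARS2), whose changes were between -0.20 and 0.14. After that subtraction, 11.6% of the genes that reached 1 FPKM in each library were past 1.5-fold. With 1 library per group and no read counts, an effect of the shRNA and a difference between libraries of 1 condition cannot be told apart.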
